A study of Mus musculus with 10 samples.

Results

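The baseline transcriptome of interscapular brown adipose tissue, which lies under the skin of the upper back and produces heat, was described from the 5 control libraries of a series of 10. The 5 control mice were kept at 22 °C, and the other 5 mice of the series were placed at 4 °C for 3 days and are not analysed here. Control libraries were taken as the columns of the count table that do not carry the word for cold. All 5 controls were male C57BL/6JBomTac mice, 8 weeks old, single-housed with chow and water freely available and with no agent or altered allele named in the labels. As a model of unstimulated tissue the group is limited, since 22 °C is below the range in which a mouse keeps its body temperature without extra heat production.

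Brown adipocytes hold many small lipid droplets and a dense population of mitochondria. On adrenergic stimulation, droplet triglyceride is split into fatty acids, which both fuel the respiratory chain and open the proton path of uncoupling protein 1 (Ucp1), so that the energy of respiration leaves as heat in place of ATP. The tissue refills its droplets from circulating triglyceride, from fatty acids and from glucose turned into fatty acid, and it can also burn pyruvate, branched-chain amino acids, ketone bodies and acetate.

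Levels are given in TPM, computed from the deposited counts divided by the number of bases counted for each gene and scaled to a sum of 1000000 in each library, so that genes can be compared per length. Values are mean ± SD over 5 libraries (n = 5), with the mice named 1 to 5 after the replicate numbers of the labels. Library totals ran from 4446163 to 5776905 counts. Between 11396 and 11562 genes reached 1 TPM in a library, and 5045 of the 20295 gene models had no count in any control. A count of 0 over the 24929331 counts of the 5 libraries allows up to 3 counts of the total, or 0.12 in 1000000 (counting error only). No mitochondrially encoded gene was among the rows. Mouse 2 stood apart from the rest. Among 7004 genes with means over the libraries of at least 10 TPM and 50 counts, it held 150 genes at 2-fold or more above the median of the other 4 and 140 at 2-fold or more below. The same counts were 57 and 52 for mouse 1, and 6 to 17 and 11 to 18 for mice 3 to 5. Where a result rests on mouse 2, the value without it or the value of each mouse is therefore often given.

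The transcriptome was concentrated in few genes, and to nearly the same degree in every mouse. The 10 most abundant genes of each library held 14% ± 0.569 of its TPM and the 100 most abundant 38.7% ± 0.148. Between 206 and 211 genes held 50% of the TPM. Over the mean levels, 158 genes reached 1000 TPM and together held 45.6% of the total, whereas the 5818 genes between 10 and 100 TPM held 19.5%. All of the 30 most abundant genes fell into a functional class listed for this description, 12 of them into the respiratory chain and ATP synthase. Of the 100 most abundant, 36 belonged to the respiratory chain and 91 to some class, and 84 were among the 100 most abundant of every single library. Over all 20295 gene models, 904 are in some class and 84 in the respiratory chain class. The classes were listed with earlier results of these data known, so the counts of class members are a description only.

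The 2 most abundant messages serve fatty acid handling. Fabp4, the fatty acid binding protein of adipocytes (chromosome 3, 10204343 to 10208576, minus strand, build mm9), stood at 32220, 40179, 35544, 38218 and 34522 TPM in mice 1 to 5. Scd1, the desaturase that puts the double bond into stearic and palmitic acid (chromosome 19, 44468940 to 44482199, minus strand), stood at 36090, 25763, 36756, 24999 and 33651 TPM. Fabp4 was higher in mice 2, 4 and 5 and Scd1 in mice 1 and 3, so the order of their means (36136 ± 3121 and 31452 ± 5668 TPM) does not hold beyond their spread. Each exceeded every other gene in all 5 libraries. Per read rather than per length, Scd1 was the most abundant gene with 7.43% of all counts, Fasn took rank 2, and Fabp4 rank 4.

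Next came Thrsp (12068 ± 1350 TPM), a nuclear protein that moves with lipogenic genes, and Ucp1 (11177 ± 1105 TPM). Gpd1, the cytosolic glycerol 3-phosphate dehydrogenase, stood at 10003 ± 932 TPM and Atp5b, the catalytic beta subunit of ATP synthase, at 9828 ± 679 TPM. These 4 genes held ranks 3 to 6 in every library, in an order that changed between mice. Aldoa (an aldolase) and the cytochrome c oxidase subunits Cox6a1 and Cox8b followed, at 7944 ± 1364, 7760 ± 331 and 7238 ± 855 TPM. Only 3 of the 29 neighbouring pairs within the first 30 kept their order in all 5 libraries: Scd1 above Thrsp, Atp5b above Aldoa, and Cox4i1 above Cidea. Ranks were narrow for some genes of the first 30, such as 7 to 8 for Cox6a1, 13 to 16 for Cox4i1 and 7 to 10 for Aldoa. They were wide for others: Fasn ranged over ranks 10 to 45, Tkt over 15 to 79, Pck1 over 15 to 77 and the secreted protease Cfd (adipsin) over 10 to 102.

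**Figure D1:**
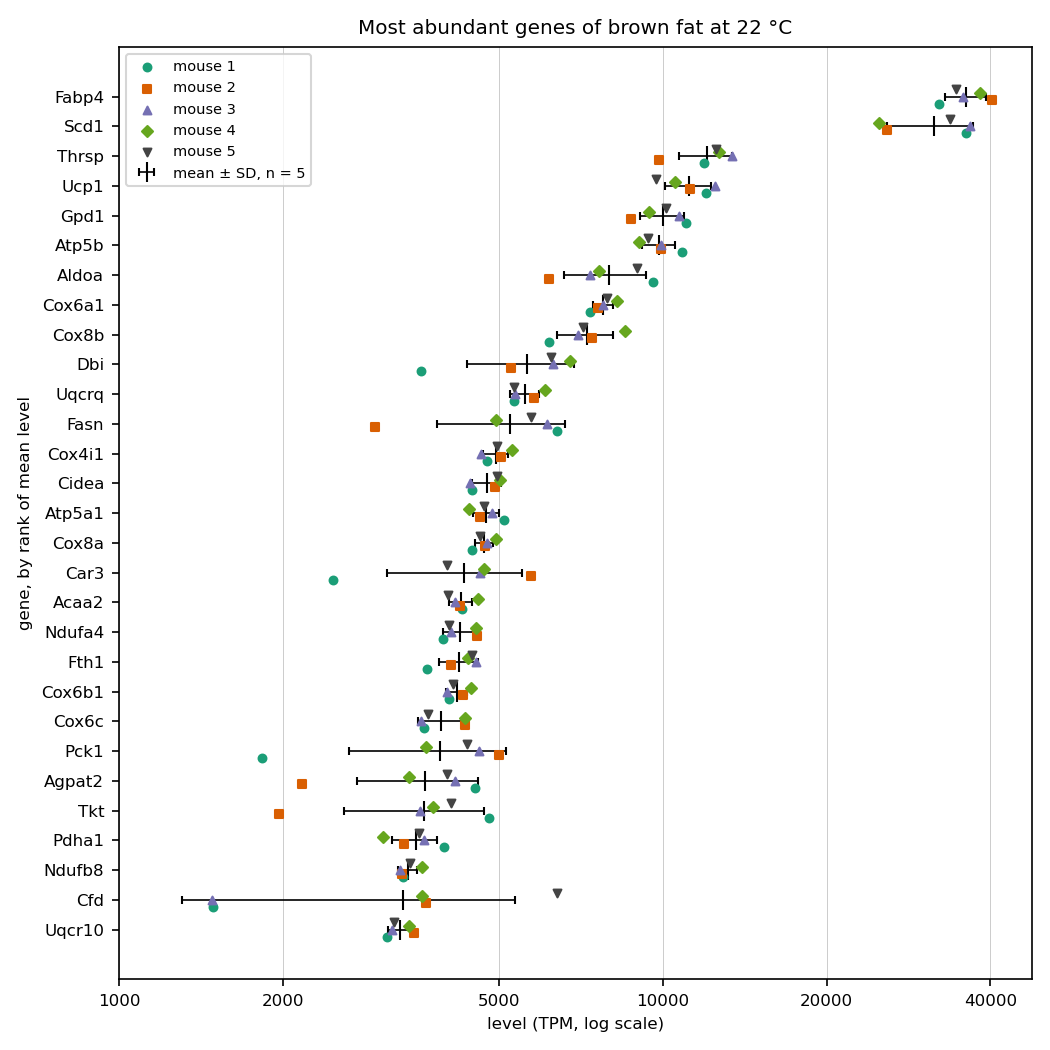
Level of 29 of the 30 most abundant genes in TPM on a log axis, with 1 point per mouse and a bar for mean ± SD (n = 5). Fabp4 and Scd1 lie apart from the rest at 24999 TPM or more in every mouse, and Fasn, Agpat2 and Tkt are lowest in mouse 2, whereas respiratory subunits such as Cox6a1 and Cox8a spread little.

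Markers of the labelled tissue were abundant. All 14 brown adipocyte markers listed reached 1 TPM, with a summed level of 27763 ± 1324 TPM, led by Ucp1, Cox8b, the droplet protein Cidea (4755 ± 293 TPM), Cox7a1 (2362 ± 148 TPM) and Fabp3 (1141 ± 207 TPM). The transcription factors of brown identity lay far lower per length, Ebf2 at 26.9 ± 4.81, Prdm16 at 8.96 ± 3.04, Zic1 at 6.97 ± 3.49 and Lhx8 at 3.17 TPM. General adipocyte markers summed to 45249 ± 4464 TPM, of which Fabp4 made up most. With whole transcript lengths, an alternative chosen after seeing the data, this sum was 36907 TPM. The list of white adipocyte markers summed to 235 ± 160 TPM (164 ± 21.8 without mouse 5), with 7 of 10 at 1 TPM or more. Hoxc9, Hoxc10 and Tcf21 had no count in any control. The most abundant gene of the list was Retn (resistin), at 80.8, 130, 126, 139 and 455 TPM in mice 1 to 5. Mouse 5 was thus the only mouse with Retn above 139 TPM, and it also held the most Cfd, 6383 TPM against 1485 to 3670 in the others.

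Markers of other cells of the depot were present at much lower sums. Endothelial markers summed to 620 ± 148 TPM with 10 of 10 at 1 TPM or more (867 TPM in mouse 2, 558 ± 61.5 without it), pericyte and smooth muscle markers to 526 ± 66.4, fibroblast markers to 487 ± 60.6 and macrophage markers to 300 ± 109 TPM. Without models counted over under 50% of their transcript, an alternative chosen after seeing the data, the pericyte and smooth muscle sum was 245 TPM and the fibroblast sum 508 TPM, so that their order turned. Lists for T cells and B cells summed to 3.29 ± 1.70 and 3.96 ± 1.35 TPM. Skeletal muscle markers summed to 121 ± 68.1 TPM, with 9 of 15 at 1 TPM or more. The light chain gene Myl1 made up 81.0 ± 13.8 TPM of this sum, and Myod1 and Pax7 had no count. Mouse 4 held the most, 242 TPM against 78.5 to 103 TPM in the others, and its Ckm, the muscle creatine kinase, was at 29.3 TPM against at most 3.32 TPM. In tissue of mixed cells, fewer cells of a type and less RNA per cell cannot be told apart. Globin levels could not be read, since reads were counted over 1 base of Hbb-b1 and 3 bases of Hba-a1.

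Functional classes accounted for 54.5% ± 0.53 of the TPM with 904 of the 20295 gene models. The nuclear-encoded respiratory chain and ATP synthase alone held 15.8% ± 0.472 of the TPM with 84 genes (15.7, 16.0, 15.3, 16.4 and 15.4% in mice 1 to 5). De novo lipogenesis, the making of fatty acids from acetyl-CoA, came next with 6.12% ± 1.13 (7.20, 4.53, 6.81, 5.34 and 6.70%). Without mouse 2, the lowest, its share was 6.51% ± 0.809. This class includes genes that lengthen or desaturate fatty acids and regulators, and Scd1, Thrsp and Fasn made up 79.7% of it. With the 20 most abundant genes left out, which removes these genes, the class held 1.53% and mitochondrial fatty acid oxidation 3.69%. Fatty acid uptake, binding and activation held 5.03% ± 0.513, mitochondrial fatty acid oxidation 3.42% ± 0.166, the tricarboxylic acid cycle 2.82% ± 0.21 and triglyceride synthesis, droplets and lipolysis 2.36% ± 0.0776. Below these came the cytosolic ribosomal proteins (1.89% ± 0.155), pyruvate and lactate genes (1.87% ± 0.12), glucose uptake and glycolysis (1.55% ± 0.266), glycerol and glycerol phosphate (1.5% ± 0.0987) and Ucp1 by itself (1.12% ± 0.11).

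The order of the first 2 classes depended on the measure. Per read, de novo lipogenesis held 13.0% ± 2.37 of the counts and the respiratory chain 7.02% ± 0.269. Scd1 and Fasn were counted over 4837 and 9938 bases. Per length the respiratory share was above the lipogenic share in all 5 libraries. The mitochondrial classes together (respiratory chain, Ucp1, tricarboxylic acid cycle, fatty acid oxidation, carriers and mitochondrial ribosomal proteins; 247 genes) held 24.9% ± 0.633 of the TPM. Classes that make and store lipid (68 genes) held 9.97% ± 1.23, and the genes from glucose uptake through pyruvate, lactate, glycogen and the pentose phosphate path (88 genes) held 4.56% ± 0.605. By counts the mitochondrial classes held 15.3% ± 0.564, the lipid classes 17.5% ± 2.36 and the glucose classes 4.70% ± 0.568, so that the order of the first 2 turned. By TPM, the lipid and glucose groups were 8.24% and 3.69% in mouse 2, the lowest of the 5 in both cases, while the mitochondrial share lay between 24.0 and 25.5% in all mice.

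**Figure D2:**
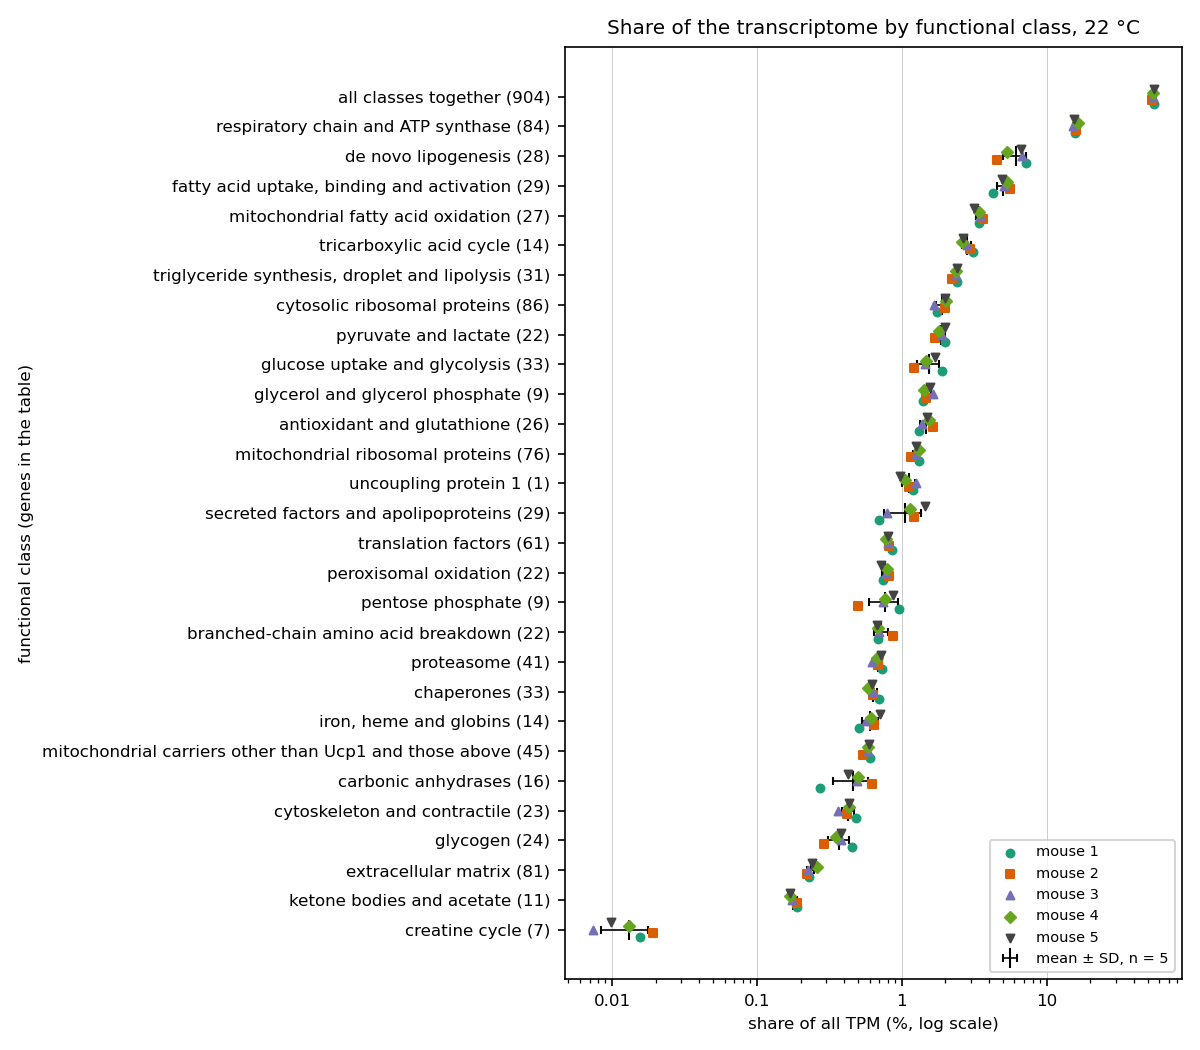
Share of all TPM held by each functional class on a log axis, with 1 point per mouse, a bar for mean ± SD (n = 5) and the number of genes in parentheses. The respiratory chain stands at 15.8% in the mean, de novo lipogenesis spreads from 4.53% in mouse 2 to 7.20% in mouse 1, and the creatine cycle is lowest at 0.013%.

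The respiratory chain passes electrons from complexes I and II through III to IV, and complex V (ATP synthase) uses the proton gradient they build. Of its 84 genes, 54 stood at 1000 TPM or more, 23 between 100 and 1000 and 7 under 100 TPM. Complex IV, cytochrome c oxidase, held the largest share with 4.99% ± 0.283 of the TPM over 16 genes, followed by complex I with 4.02% ± 0.134 over 36 genes and complex V with 3.17% ± 0.08 over 16. Complexes III and II held 2.59% ± 0.0994 over 9 genes and 0.90% ± 0.0274 over 4. The median level of a subunit gene was 2882 TPM in complex III, 2700 TPM in complex IV, 2466 TPM in complex II, 1215 TPM in complex V and 1008 TPM in complex I. Ndufa4, named for complex I, was counted with complex IV, where the protein is found.

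Subunits of a complex were not at equal message levels. In complex V, Atp5b at 9828 and Atp5a1, the alpha subunit, at 4733 TPM stood above the median of 1215 TPM. Of the 3 genes for its membrane ring subunit c, Atp5g3 stood at 923 ± 74.9 TPM, whereas Atp5g2 and Atp5g1 were at 3.36 ± 1.79 and 2.72 ± 1.84 TPM. The ring genes encode the same mature protein from different precursors. How reads that match several genes were counted was not given, and its part in these levels was not tested. In complex II, Sdha, the flavoprotein, stood at 2866 TPM and Sdhc at 1206 TPM. Reads of Sdhc were counted over 1179 of 3171 transcript bases. Dividing the same counts by the whole transcript length gave 449 TPM, which is too low if reads over the other bases were left uncounted. For Uqcrq in complex III, at 5571 ± 336 TPM, the same division gave 1835 TPM, with the same limit. Ndufs5, the lowest of complex I at 69.7 TPM, was counted over 25 bases.

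**Figure D3:**
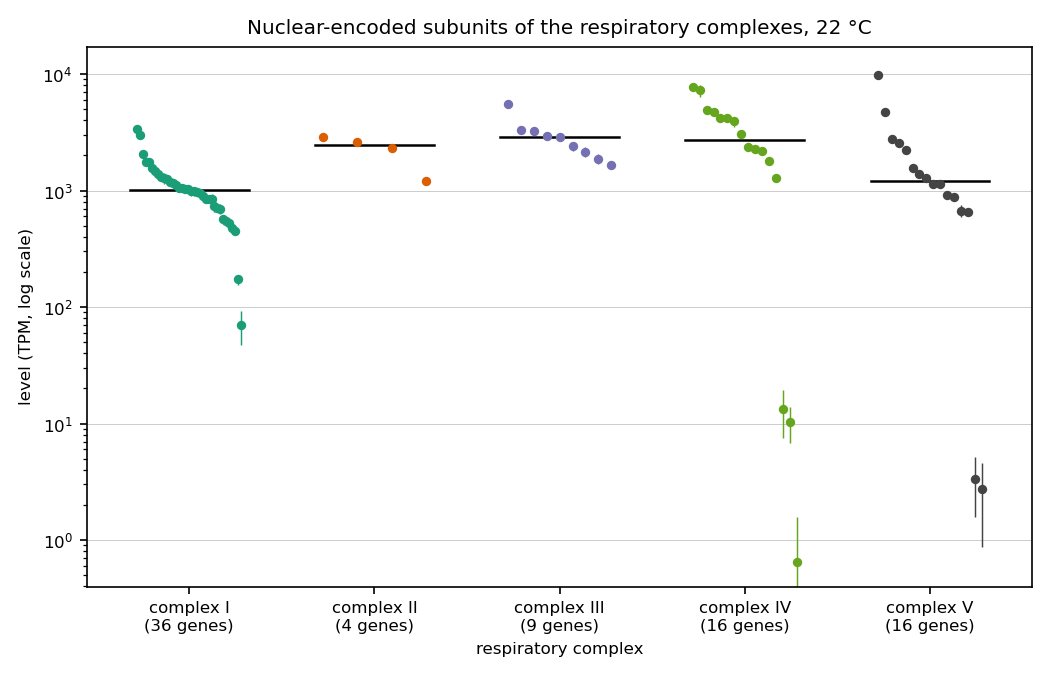
Mean level in TPM on a log axis of each nuclear-encoded subunit gene of the 5 respiratory complexes, with bars for SD (n = 5) and a line at the median of each complex. Medians lie between 1008 and 2882 TPM, and Cox6a2, Cox4i2, Atp5g1 and Atp5g2 lie at or below 10.3 TPM.

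Cytochrome c oxidase has subunits that exist in alternative isoforms, and the choice differed by subunit. Cox4i1 held 99.8% and Cox6a1 all but 0.00808% of the TPM of subunits 4 and 6a. The alternatives Cox4i2, found mainly in lung, and Cox6a2, the form of heart and skeletal muscle, were at 10.3 ± 3.44 and 0.646 ± 0.943 TPM. For subunits 7a and 8, however, the isoform of contractile tissue and brown fat led per length. Cox8b stood at 6169, 7404, 6969, 8528 and 7119 TPM in mice 1 to 5, and Cox8a at 4453, 4713, 4740, 4941 and 4614 TPM. Cox8b was above Cox8a per length in every mouse, by 1.54 ± 0.127 times, but per read it held only 50.6% of the counts of the pair. Cox7a1 stood at 2449, 2381, 2268, 2545 and 2168 TPM and Cox7a2 at 1246, 1338, 1174, 1360 and 1229 TPM. Per length Cox7a1 was above Cox7a2 in every mouse, by 1.86 ± 0.0898 times, but per read the order turned, with Cox7a1 holding 47.5% of the counts of the pair.

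The promoters of these isoforms differ in base makeup, and are shown here because each pair encodes alternatives of 1 subunit at comparable levels. RefSeq promoters of build GRCm38.p6 were matched by symbol for 15264 of the 20295 genes, which have 18691 promoters. Within the 250 bases before each start, C followed directly by G (CG, which reads the same on the other strand) was counted over all neighbouring pairs of bases. CG made up 0.402% of pairs for Cox8b and 4.42% for Cox8a, and 1.61% for Cox7a1 and 5.62% for Cox7a2, against a median of 4.42% over all 18691. The last 80 bases before the start are printed on the strand of the gene with CG in capitals. They lie at chr7:140900447-140900526 (minus strand) for Cox8b, chr19:7217617-7217696 (minus) for Cox8a, chr7:30184091-30184170 (plus) for Cox7a1 and chr9:79759854-79759933 (minus) for Cox7a2.
Cox8b: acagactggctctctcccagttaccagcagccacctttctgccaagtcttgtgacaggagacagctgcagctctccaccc
Cox8a: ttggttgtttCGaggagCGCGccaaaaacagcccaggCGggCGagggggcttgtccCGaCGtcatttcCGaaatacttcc
Cox7a1: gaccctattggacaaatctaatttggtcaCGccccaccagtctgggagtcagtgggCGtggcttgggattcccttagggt
Cox7a2: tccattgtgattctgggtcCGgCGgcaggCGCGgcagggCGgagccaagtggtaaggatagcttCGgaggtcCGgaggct

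Promoters poor in CG were found at every level and were most common among genes with no count. CG made up under 2% of pairs in 72.5% of the promoters of genes with no count. The same share was 38.7% for genes with a count but under 1 TPM, 19.6% between 1 and 10 TPM, 10.2% between 10 and 100 TPM, 9.20% between 100 and 1000 TPM and 11.3% at 1000 TPM or more. It was 31% over all. Genes of fat cells and lipid synthesis lay at both ends: CG made up 0.803% of pairs for Thrsp and Cfd and 0% for Adipoq, but 6.83% for Fabp3 and 13.3% for Fasn. Ucp1 had 4.82%, Atp5b 5.62% and Cox6a1 10.4%. The median over the promoters of lipogenic genes was 5.62%. The same 80 bases are shown for Thrsp (chr7:97417551-97417630, minus strand), which has no CG in the 80 bases before its start, and for Ucp1 (chr8:83290268-83290347, plus strand) and Cox6a1 (chr5:115348959-115349038, minus strand), which have 3 and 13.
Thrsp: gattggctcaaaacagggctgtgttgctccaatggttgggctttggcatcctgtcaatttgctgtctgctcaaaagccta
Ucp1: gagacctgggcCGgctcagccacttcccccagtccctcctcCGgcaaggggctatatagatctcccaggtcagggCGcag
Cox6a1: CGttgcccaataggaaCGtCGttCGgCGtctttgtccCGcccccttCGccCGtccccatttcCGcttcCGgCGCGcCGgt
The count of CG describes these letters only, and its part in the levels was not tested. Fabp4, Scd1 and Gpd1 were among the genes not matched.

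Ucp1 (chromosome 8, 85814247 to 85822355) stood at 11990, 11205, 12462, 10505 and 9722 TPM in mice 1 to 5, between rank 3 and rank 5 in every library. Mouse 5 was lowest and mouse 3 highest, and mouse 2 lay in the middle. Ucp1 held 97.5% ± 0.552 of the TPM of the uncoupling protein family, Ucp3, its relative of muscle, 1.89% ± 0.50 (214 ± 43.9 TPM) and Ucp2 0.563% ± 0.12 (63.6 ± 10.4 TPM). The adenine nucleotide carriers of the inner membrane, Slc25a4 and Slc25a5, which exchange ATP for ADP, stood at 1200 ± 67.9 and 1057 ± 125 TPM. Ucp1 was 9.31 ± 0.70 times as high as Slc25a4. Slc25a4 lay above Slc25a5 in all 5 libraries, but with whole transcript lengths Slc25a5 led.

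All 14 genes of the tricarboxylic acid cycle, which turns acetyl-CoA into carbon dioxide and reduced carriers, exceeded 100 TPM, with a median of 1971 TPM. Cs (citrate synthase) stood at 2769 ± 303, Suclg1 at 2432 ± 220, Mdh2 (malate dehydrogenase) at 2373 ± 179 and Sucla2 at 2321 ± 275 TPM. The 3 subunits of the NAD-linked isocitrate dehydrogenase, Idh3b, Idh3a and Idh3g, were alike at 2178 ± 155, 1998 ± 214 and 1945 ± 161 TPM, far above the NADP-linked Idh2 at 428 ± 38.4 TPM. Succinyl-CoA synthetase exists as an ADP-forming and a GDP-forming enzyme, and the subunit of the former, Sucla2, was at 2321 TPM against 106 ± 11 TPM for Suclg2 of the latter.

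Fatty acids enter the mitochondrion as carnitine esters made by carnitine palmitoyltransferase 1. Cpt1b, the muscle form, stood at 870 ± 146 TPM and Cpt1a, the liver form, at 9.27 ± 3.29 TPM, but reads of Cpt1b were counted over 150 of its 2895 transcript bases. Dividing the same counts by the whole transcript length gave 45.1 TPM for Cpt1b, which is too low if reads over the other bases were left uncounted. The level of Cpt1b is therefore uncertain. By reads Cpt1b was above Cpt1a in every mouse, with 263 to 366 counts against 58 to 126, and held 75.4% of the counts of the family. The carnitine carrier Slc25a20 stood at 932 ± 77.5 TPM and Cpt2, which releases the fatty acid inside, at 782 ± 69.5 TPM.

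Inside the matrix, the acyl-CoA dehydrogenases for very long (Acadvl), long (Acadl) and medium (Acadm) chains stood close together at 3192 ± 207, 3187 ± 375 and 2985 ± 497 TPM. Their order did not hold between libraries, and Acadm was highest in mouse 2 with 3854 TPM against 2659 to 2879 TPM in the others. Acads, for short chains, was at 582 ± 22.7 TPM. Of the later steps, the thiolase Acaa2 led the class at 4247 ± 205 TPM, Hadh stood at 2234 ± 204, Echs1 at 1821 ± 131, and the trifunctional protein subunits Hadhb and Hadha at 1935 ± 148 and 1581 ± 225 TPM. Electrons leave through Etfb and Etfa, at 2929 ± 259 and 1897 ± 160 TPM. The auxiliary enzyme Decr1, needed for unsaturated chains, was among the least variable genes at 746, 772, 771, 750 and 742 TPM. In all, 22 of the 27 genes of the class exceeded 100 TPM. Peroxisomal oxidation held 0.771% ± 0.0407 of the TPM.

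Fatty acids reach the cell from circulating triglyceride, split by lipoprotein lipase (Lpl), and through the membrane receptor Cd36. Lpl stood at 1131, 4145, 1939, 1932 and 2096 TPM in mice 1 to 5, highest in mouse 2 and lowest in mouse 1, and at 1775 ± 436 TPM without mouse 2. Cd36 stood at 1421, 1616, 1562, 1440 and 1432 TPM and differed little between mice. The transport proteins were lower, Slc27a2 at 272 ± 98.8 and Slc27a1 at 167 ± 47.8 TPM. Mouse 1 had the least of both. Within the cell Fabp4 held 96.4% ± 0.468 of the fatty acid binding proteins, and the acyl-CoA binding protein Dbi stood at 5615 ± 1258 TPM. Of the long-chain acyl-CoA synthetases, Acsl1 held 70.0% ± 4.82 (1515 ± 174 TPM) and Acsl5 27.1% ± 4.26 (584 ± 75.5 TPM).

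De novo lipogenesis takes citrate out of the mitochondrion, turns it into acetyl-CoA and malonyl-CoA, and builds, lengthens and desaturates the fatty acid. The citrate carrier Slc25a1 stood at 1512 ± 459 TPM, and at 1709 ± 146 TPM without mouse 2. Acly, which splits citrate, stood at 5221, 1174, 2707, 2448 and 3926 TPM in mice 1 to 5, Fasn, the fatty acid synthase, at 6373, 2958, 6131, 4937 and 5730 TPM, and Acaca, the first acetyl-CoA carboxylase, at 1041, 528, 982, 763 and 995 TPM. In each of these 3 genes mouse 2 was lowest and mouse 1 highest. Acaca held 67.5% ± 3.31 and Acacb 32.5% of the carboxylases, and Elovl6 68.3% ± 5.70 of the elongases, above Elovl3 with 17.5% and Elovl5 with 12.9%. Me1 (malic enzyme), a source of NADPH, was at 1120 ± 517 TPM, with 479 TPM in mouse 2 against 853 to 1849. Acetate can enter the same path through Acss2, at 1074 ± 446 TPM, or the mitochondrion through Acss1, at 214 ± 56.2 TPM (189 ± 3.68 without mouse 2). Acss2 was lowest in mouse 2, at 586 TPM against 815 to 1699 TPM in the others.

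Scd1 held 96.8% ± 1.04 of the desaturase family, with Scd2 at 594 ± 359, Scd4 at 338 ± 125 and Scd3 at 165 ± 55.0 TPM. These genes are near copies of each other, so reads may be split between them. Scd1 was lowest in mouse 4, and Thrsp was lowest in mouse 2 at 9843 TPM against 11902 to 13380 TPM in the others. The transcription factors of the path, Srebf1 and Mlxipl, which answer to insulin and glucose, stood at 209 ± 80.7 and 204 ± 64.1 TPM, and both were lowest in mouse 2 (79.6 and 108 TPM) and highest in mouse 1 (290 and 282 TPM).

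Triglyceride is made by adding acyl groups to glycerol phosphate. Agpat2 stood at 3657 ± 920 TPM (4027 ± 461 without mouse 2), and Dgat2, which adds the last acyl group, at 2577 ± 530 TPM with 87.1% ± 0.936 of its pair against 383 ± 92.6 TPM for Dgat1. Lpin1 held 96.5% of the lipins at 277 ± 78.5 TPM. On the droplet surface, Cidea (78.5% ± 4.12) stood above Cidec (21% ± 4.42). Plin2 stood at 3122, 1179, 1438, 1388 and 1878 TPM in mice 1 to 5 and Plin1 at 1168, 819, 1092, 968 and 1169 TPM. Plin2 was above Plin1 in every mouse and was highest in mouse 1. Plin5, the perilipin of oxidative tissues, stood at 324 ± 7.99 TPM.

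The 3 lipases that free fatty acids in turn were Pnpla2 (ATGL) at 1662, 2837, 2409, 2193 and 1930 TPM, Lipe (hormone-sensitive lipase) at 1323, 935, 1341, 1342 and 1480 TPM, and Mgll (monoglyceride lipase) at 444, 498, 723, 558 and 491 TPM. Pnpla2 was highest and Mgll lowest of the 3 in every mouse. Mouse 2 had the most Pnpla2 and the least Lipe, and also the least of the ATGL inhibitor G0s2, 355 TPM against 747 to 1124 TPM. Abhd5, the activator of ATGL, stood at 123 ± 21.6 TPM.

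Glycerol phosphate for this synthesis can come through Gpd1, from glucose or, by way of Pck1, from pyruvate. It can also come from free glycerol through glycerol kinase (Gyk). Gpd1 stood at 11022, 8732, 10708, 9446 and 10110 TPM, Pck1 at 1832, 4997, 4598, 3675 and 4361 TPM, and Gyk at 140, 227, 191, 162 and 143 TPM in mice 1 to 5. The order of the 3 genes held in every mouse, but it does not rank the routes, since Gpd1 is shared between routes. Mouse 1 had the most Gpd1 and the least Pck1, and mouse 2 the least Gpd1 and the most Pck1 and Gyk. Gpd2, the mitochondrial partner of Gpd1 in the shuttle that carries cytosolic electrons to the respiratory chain, stood at 770 ± 115 TPM, and Gpd1 was 13.1 ± 1.02 times as high. The glycerol channel Aqp7 stood at 108 ± 16.4 TPM.

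Slc2a4, the insulin-responsive glucose transporter GLUT4, stood at 664, 439, 522, 519 and 585 TPM in mice 1 to 5, 84.7% ± 3.31 of the messages of the family, whereas Slc2a1 (GLUT1) stood at 7.63, 14.1, 6.07, 5.17 and 6.19 TPM. Mouse 2 had the least Slc2a4 and the most Slc2a1. Slc2a5, a fructose transporter, was at 57.6 ± 38.3 TPM and ranged from 9.43 TPM in mouse 2 to 106 TPM in mouse 1. Hk2 held 93.5% ± 2.06 of the hexokinases at 250 ± 60.7 TPM, and Pfkl 70.7% ± 3.77 of the phosphofructokinases at 522 ± 142 TPM.

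Glycolytic messages were uneven. Aldoa stood at 9608, 6161, 7347, 7638 and 8966 TPM and held 99.9% of the aldolases, and Pkm stood at 3240, 1622, 2226, 2149 and 2609 TPM, while Pklr had no count. Both were lowest in mouse 2 and highest in mouse 1. Gpi1, Pgk1 and Tpi1 were at 900 ± 222, 767 ± 83.4 and 738 ± 44.8 TPM, so that Aldoa was 10.7 ± 1.30 times as high as Tpi1. Gapdh, at 139 ± 33.7 TPM, and Eno1, at 192 ± 59.4 TPM, lay lower still. Of the 50-base words of the Gapdh transcript, 90.4% also occur in annotated pseudogene transcripts, which number 215, and the part of such copies in its level was not tested. Reads of Eno1 were counted over 127 of 2027 bases. The same counts over the whole transcript length gave 12.0 TPM, which is too low if reads over the other bases were left uncounted. The same share of words was 68.0% for Pgk1, 33.2% for Pkm and 9.14% for Aldoa.

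Pyruvate meets 3 fates: entry into mitochondria, reduction to lactate, and carboxylation. The carrier genes Mpc1 and Mpc2 stood at 2857 ± 270 and 2017 ± 246 TPM, and the dehydrogenase subunits Pdha1 and Pdhb at 3511 ± 336 and 2855 ± 537 TPM. Mpc2 was lowest in mouse 2, 1580 TPM against 2092 to 2158 TPM. Pdk4, a kinase that turns pyruvate dehydrogenase off, stood at 630, 1495, 1629, 1048 and 1301 TPM and held 70.8% ± 7.06 of the kinases, Pdk2 22.5% ± 5.62. The activating phosphatases were at 49.7 ± 12.6 TPM (Pdp2) and 5.47 ± 0.814 TPM (Pdp1). Mouse 1 had the least Pdk4. Ldha stood above Ldhb in every mouse (2634 ± 255 and 1233 ± 103 TPM, or 65.6% ± 3.66 and 30.8% ± 3.23 of the lactate dehydrogenases), and Slc16a1, which carries lactate and ketone bodies, held 93.9% ± 1.51 of the monocarboxylate transporters at 234 ± 66.8 TPM. Pyruvate carboxylase (Pcx) was at 610 ± 61.6 TPM.

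**Figure D4:**
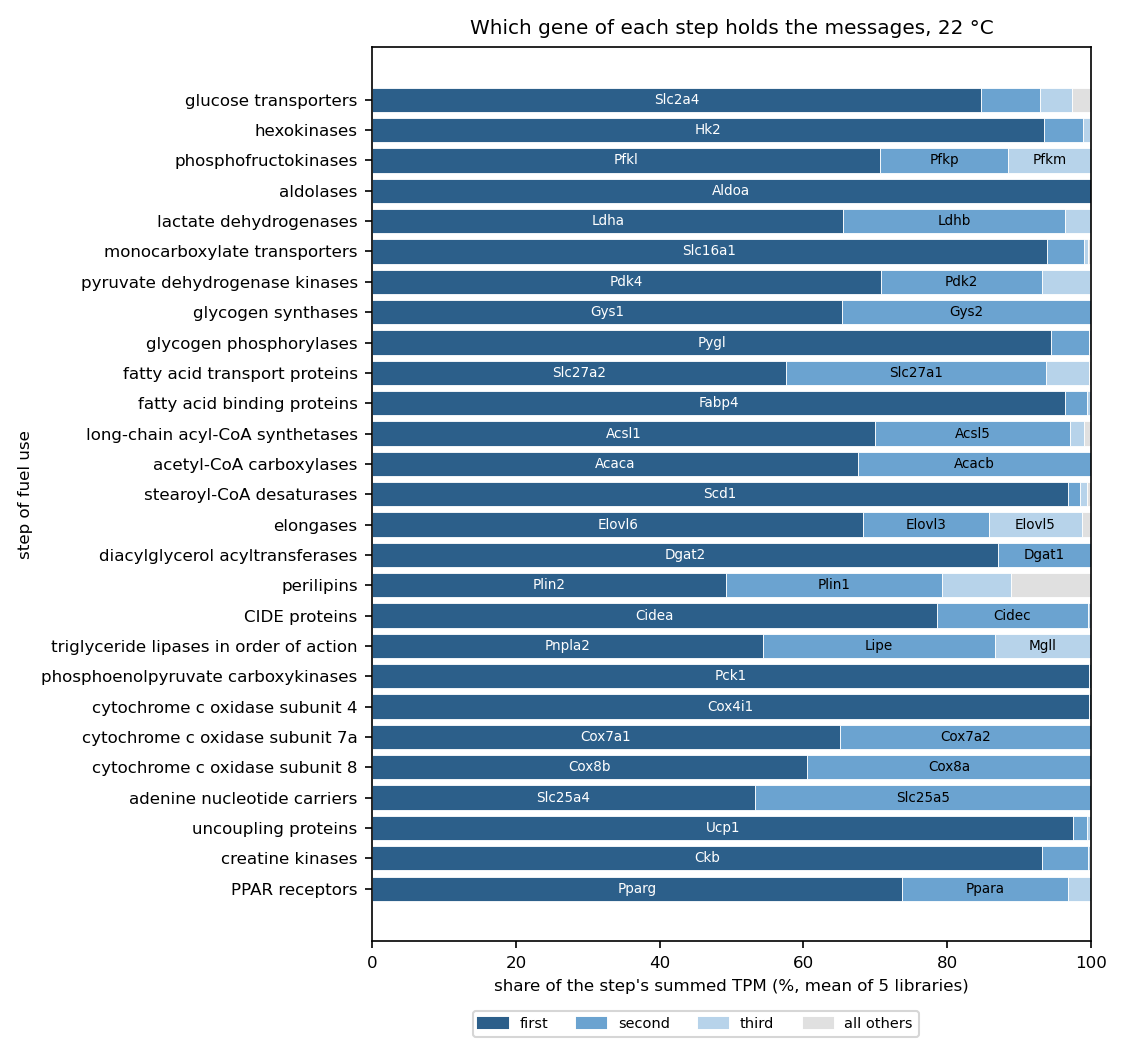
Share of the summed TPM of each step that each of its genes holds, as the mean of 5 libraries, with the 3 leading genes in separate shades and all others in grey. A single gene holds 93.5% or more at hexokinases, aldolases and desaturases, while perilipins, lactate dehydrogenases and adenine nucleotide carriers are divided.

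Side paths of glucose were expressed throughout. The glycogen class held 0.37% ± 0.0592 of the TPM, with the liver form of phosphorylase, Pygl, at 94.4% ± 0.917 of its family (1221 ± 190 TPM) and the muscle form Pygm at 3.5 ± 0.968 TPM. Both synthases were present, Gys1 at 155 ± 13.3 and Gys2, the liver form, at 83.3 ± 21.1 TPM. The pentose phosphate path, a source of NADPH for fatty acid synthesis, held 0.955, 0.498, 0.744, 0.765 and 0.864% of the TPM in mice 1 to 5. Its mean of 0.765% ± 0.172 became 0.832% ± 0.0972 without mouse 2, the lowest. Tkt (transketolase) stood at 3641 ± 1043 (4059 ± 533 without mouse 2), Taldo1 at 1956 ± 241 and G6pdx, the entry enzyme, at 403 ± 117 TPM.

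Other fuels had fewer messages, as did the creatine cycle and the reticulum calcium pumps, which are not fuels. The ketone body and acetate class held 0.179% ± 0.0104 of the TPM. Oxct1, the enzyme that activates ketone bodies for burning, stood at 264 ± 25.7 TPM and Acat1 at 740 ± 43.9 TPM. Bdh1, which interconverts the 2 main ketone bodies, was at 0.306 ± 0.247 TPM. Branched-chain amino acid breakdown held 0.722% ± 0.0825, and 0.685% ± 0.0077 without mouse 2. The mitochondrial aminotransferase Bcat2 stood at 161 ± 54.1 TPM (138 ± 20.3 without mouse 2) and Bckdha, of the dehydrogenase complex, at 974 ± 65.8 TPM. The class was highest in mouse 2, with 0.869% against 0.676 to 0.694% in the other mice. The creatine cycle class held 0.013% ± 0.0047, with Ckb at 122, 163, 49.3, 70.8 and 72.1 TPM, and the mitochondrial kinases Ckmt2 and Ckmt1 at 0.321 ± 0.718 and 0.0599 ± 0.134 TPM. Of the reticulum calcium pumps, Atp2a2 held 91.8% ± 3.47 at 115 ± 10.4 TPM.

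Among the receptors and coactivators that set fuel use, mouse 2 lay at the edge for several. Adrb3, the beta-3 adrenergic receptor, stood at 160, 49.5, 278, 211 and 190 TPM in mice 1 to 5, lowest in mouse 2. Ppargc1a, the coactivator of mitochondrial genes, stood at 41.7, 305, 68.3, 28.1 and 25 TPM, and its relative Ppargc1b at 27.1, 44.3, 38.3, 30.1 and 23.2 TPM. The mean of Ppargc1a rested on mouse 2, with 93.6 TPM over all mice and 40.8 TPM without it, and its share of the family, 59.5% ± 16.2, was 52.9% without that mouse. Pparg, the receptor that directs fat cell genes, was at 392 ± 73.5 TPM and Ppara, which directs fatty acid oxidation, at 122 ± 37.5 TPM. Pparg was above Ppara per length in all 5 libraries but Ppara held 52.2% of the family's counts per read and also led with whole transcript lengths. Esrra, an estrogen-related receptor that acts on mitochondrial genes, held 94.2% ± 1.06 of its family at 230 ± 21.7 TPM.

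The remaining classes serve protein synthesis, protection and secretion. The 86 cytosolic ribosomal protein genes held 1.89% ± 0.155 of the TPM with a median of 165 TPM. However, 39 of them share 50% or more of their 50-base words with pseudogenes, and these had a median of 130 TPM against 242 TPM for the rest. The part of such copies in the levels was not tested. The 76 mitochondrial ribosomal protein genes held 1.26% ± 0.0584. Antioxidant genes held 1.47% ± 0.128, led by Gpx3 at 2601 ± 914 TPM, and the ferritin chain Fth1 stood at 4226 ± 347 TPM. Secreted factors held 1.06% ± 0.309, led by Cfd, Apoe (2352 ± 688 TPM) and Adipoq (adiponectin, 1777 ± 380 TPM). Leptin (Lep) stood at 27.3, 1.79, 8.56, 5.13 and 6.40 TPM, highest in mouse 1 and lowest in mouse 2. Carbonic anhydrases held 0.461% ± 0.126, nearly all of it the muscle and fat enzyme Car3, at 2474, 5732, 4610, 4685 and 4017 TPM, highest in mouse 2 and lowest in mouse 1. The 81 extracellular matrix genes held 0.235% ± 0.0142, led by Sparc at 675 ± 108 TPM.

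Variation between mice differed by class. Over the 7004 genes with enough reads, the median coefficient of variation between the 5 libraries was 13.5%, where counting error alone would give 6.51%, and without mouse 2 it was 11.5%. The respiratory chain had a median of 6.39% over 78 genes, the tricarboxylic acid cycle 8.98% over 14 and mitochondrial fatty acid oxidation 8.83% over 25. De novo lipogenesis had 28.8% over 24 genes and the pentose phosphate path 28.6% over 9, which became 17.2% and 13.1% without mouse 2. Glucose uptake and glycolysis had 23.2% over 18, and 16.5% without it.

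The deviations of de novo lipogenesis, the pentose phosphate path and glucose uptake and glycolysis ran in opposite directions in mice 1 and 2. In mouse 2, 21 of 24 lipogenic genes lay below the median of the other 4 libraries, with a median deviation of -0.80 on the log2(TPM + 0.5) scale, as did 8 of 9 pentose phosphate genes (-0.63) and 16 of 18 genes of glucose uptake and glycolysis (-0.35). In mouse 1, 21 of 24, 8 of 9 and 17 of 18 of the same genes lay above, with medians of 0.38, 0.38 and 0.41. Since each library is compared with a median that includes the other mouse, the deviations are not independent of each other. Over all 7004 genes the median of mouse 2 was -0.01 and that of mouse 1 was no farther from 0. Branched-chain amino acid breakdown lay above in mouse 2 for 17 of 21 genes (0.20). The other classes that make and store lipid did not share the lipogenic pattern. Triglyceride synthesis, droplets and lipolysis had medians of -0.04 in mouse 1 and -0.08 in mouse 2. Glycerol and glycerol phosphate had -0.18 in mouse 1 and 0.17 in mouse 2.

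**Figure D5:**
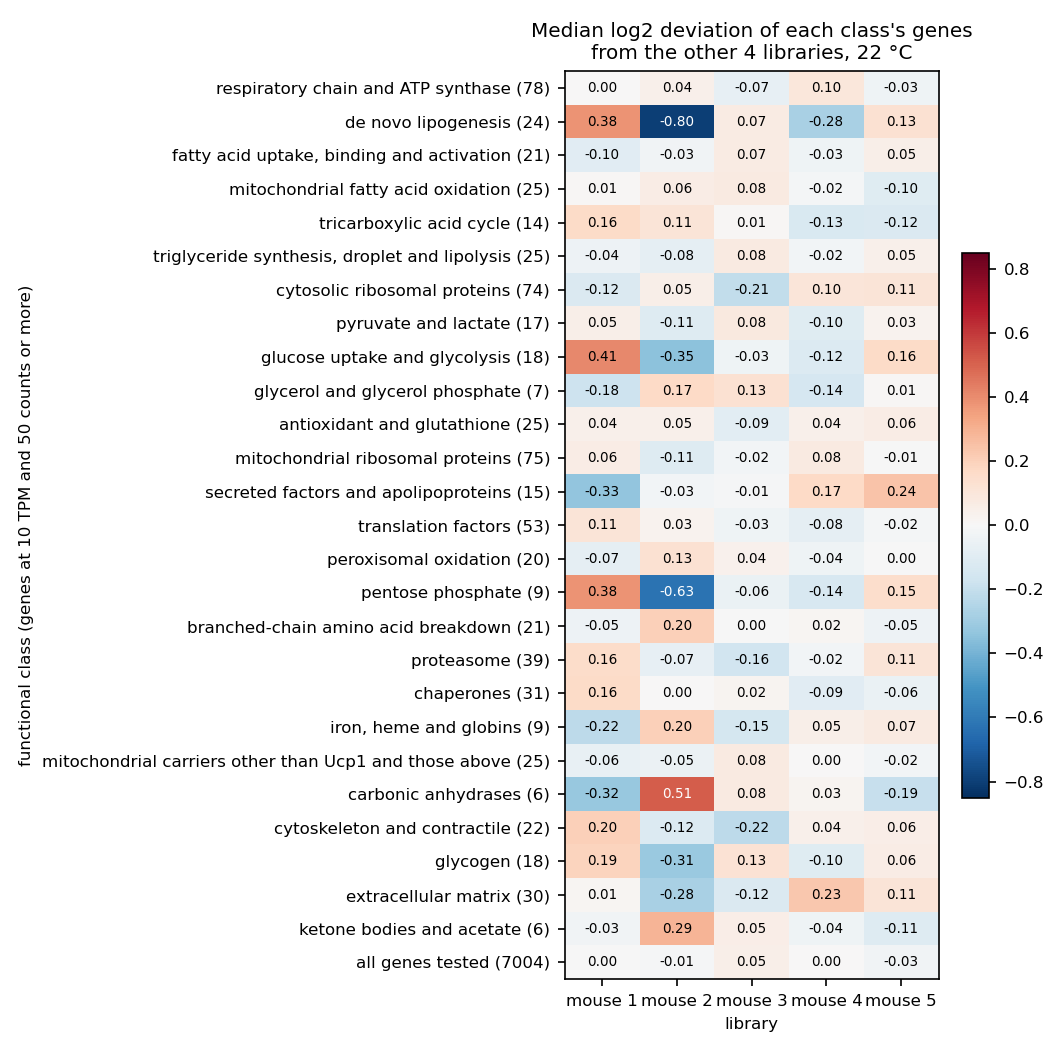
Median log2 deviation of the genes of each class in each library from the median of the other 4, with red above and blue below and the number of genes in parentheses. Mouse 2 is at -0.80 for de novo lipogenesis and -0.63 for the pentose phosphate path, mouse 1 is at 0.38 for both, and the respiratory chain stays between -0.07 and 0.10 in every mouse.

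The most variable genes were carried by mouse 2, which was the highest library in 62 of the 100 most variable genes, against 29 for mouse 1. Over all 7004 genes mouse 2 was the highest in 27.7% and mouse 1 in 24.8%. Ranking by spread favours genes in which a single library stands apart, so these counts are a description. Mouse 2 was the highest in all of the 10 most variable. Cyp2b10, a cytochrome P450, stood at 5.59, 482, 12.8, 7.08 and 6.74 TPM in mice 1 to 5, and Mfsd2a, a lipid transporter, at 1.70, 117, 4.84, 0.792 and 2.85 TPM. The immediate early genes Atf3, Nr4a3 and Nr4a1 followed, with Nr4a1 at 83.0, 250, 27.1, 5.92 and 20.5 TPM, and Ppargc1a, Pbld1, Trp53inp1 and Irf4 were also among the 10. Dio2, the deiodinase that activates thyroid hormone within the tissue and a further brown adipocyte marker, stood at 80.3, 512, 91.9, 57.7 and 96.5 TPM. Without mouse 2 its coefficient of variation fell from 115% to 21.2%, and that of Cyp2b10 from 206% to 40.3%. At the other end, Itgb1, an integrin chain, varied by 1.24% between mice (163 to 168 TPM), below its counting error of 2.44%. Lamp1, a lysosomal membrane protein, varied by 1.78%, near its counting error of 1.61%. Both were picked for their low spread, so these values are a description too.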

How the data were processed

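Libraries were made from poly-A RNA, with 4 µg of total RNA as input according to the labels. The deposited file gives, per the file headers and the values, unnormalised counts for each RefSeq model together with the bases over which it was counted. Per the submitters' processing notes, STAR, edgeR and the build mm9 were used. The read counter, its strand setting and the annotation version were not given in the sources used here, so overlapping or near-identical genes may share reads. Control columns were assigned through their replicate number, and 0 columns were left unused. No 2 libraries agreed within sampling noise (chi-square per degree of freedom 6.70 to 36.1).

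TPM were computed as counts over counted bases, scaled to 1000000 per library (Python 3.11.15, pandas 2.3.3). TMM scaling, as an alternative, came from edgeR 4.0.16 in R 4.3.3. Other alternatives were counts without length, a fragment length taken off each length, filters on low counts, overlapping models or the 20 most abundant genes, medians, and leaving out each mouse. No groups were compared. Single libraries that stood apart were marked by Dixon's gap over range (above 0.71 for 5 libraries). Of the 20295 models, 20094 were matched to a GENCODE transcript: 977 were counted over under 50% of it, and 139 models had under 200 counted bases. Members and lists were chosen with earlier results of these data known. The genes named are the 30 of highest mean TPM, the 3 most abundant of each class, members of fuel steps, markers, and the 10 most variable, and any others were named after their values were seen. Some genes under this rule are not reported here. The computation of levels and variation was tested on simulated data. The simulation used the same counted lengths, so errors in these lengths and shared reads were not tested.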

Additional observations from a re-analysis of the deposited data

Results flagged for a closer look

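Of 232 results checked, among them 192 single genes, 34 (14.7%) had 1 library whose gap to its nearest neighbour was unusually large for the range of the 5 libraries. Chance gives about 1 such result in 20 groups, but the genes checked include the 10 most variable, which were picked for their spread, so the share is not set against that rate. The library was mouse 2 in 21 of the 34, mouse 1 in 5, mouse 3 in 4, mouse 5 in 3 and mouse 4 in 1.

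In mouse 2 the share of branched-chain amino acid breakdown was high, 0.869% of TPM against 0.676 to 0.694% in the others. Of its genes, Bckdha stood at 1090 TPM against 931 to 963 and Aldh6a1 at 1039 against 722 to 753 TPM. Fuel genes that were high in mouse 2 were Ldhb (1409 TPM), Acadm (3854 TPM), Acss1 (314 TPM) and Oxct1 (308 TPM). Mpc2 (1580 TPM), Slc27a4 (18.7 TPM) and Lipe (935 TPM) were low there. Signalling genes that were high in mouse 2 were Ppargc1a (305 TPM) and Dio2 (512 TPM). The intermediate filament gene Vim stood at 710 TPM against 414 to 491 and the carbonic anhydrase Car4 at 155 against 57.3 to 78.1 TPM. Of the most variable genes, mouse 2 was set apart for Cyp2b10 (482 TPM), Mfsd2a (117 TPM), Atf3 (51.2 TPM), Nr4a3 (48.4 TPM), Pbld1 (55.5 TPM), Trp53inp1 (108 TPM) and Irf4 (69.6 TPM).

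Mouse 1 was high for Cs (3293 TPM against 2562 to 2762) and Suclg1 (2811 against 2280 to 2433 TPM). It was low for the transporter Slc27a1 (84.6 against 172 to 206 TPM) and the myelin gene Mbp (10.8 TPM). Its summed neutrophil and mast cell markers were 36.1 TPM against 6.44 to 11.4 TPM. Mouse 3 was high for Pdk1 (138 TPM), Pygb (75.5 TPM) and Acox3 (42.7 TPM) and low for Ucp2 (45.3 against 65.3 to 70.7 TPM). Mouse 4 was high for summed skeletal muscle markers, 242 TPM. Mouse 5 was high for summed white adipocyte markers, 519 TPM, led by Retn at 455 TPM, and low for the pericyte gene Rgs5, 224 against 296 to 324 TPM.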

How the results depend on the processing

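No paired analysis was possible because no groups were compared. Of 47 steps, 3 had another leading gene when counts were not divided by length (Idh3a, Cox7a2 and Ppara), 1 with an assumed fragment length taken off each counted length (Acadl), 3 with whole transcript lengths (Acadl, Slc25a5 and Ppara), and 1 each without mouse 1 or without mouse 5 (Acadl). Whole transcript lengths, and leaving out models counted over under 50% of their transcript, were chosen after seeing the data. By counts alone, the share of the total was 13.0% for de novo lipogenesis, 3.09% for mitochondrial fatty acid oxidation, 7.02% for the respiratory chain, 0.90% for Ucp1, 17.2% for the first 10 genes and 36.6% for the first 100. With that length taken off, the respiratory chain held 19.1%, the first 10 genes 14.8% and the first 100 40.7%. Without overlapping models these were 16.5%, 15.5% and 41.4%, and Ucp1 held 1.23%. Whole transcript lengths gave 15.2% for the respiratory chain and 38.4% for the first 100 genes, and leaving out partly counted models 14.7% for the first 10 and 39.8% for the first 100. With the 20 most abundant genes left out, which removes Ucp1 (0%), de novo lipogenesis held 1.53%, glycolysis 0.927%, fatty acid oxidation 3.69%, the respiratory chain 13.4%, the first 10 genes 4.91% and the first 100 27.8%, and 375.8 genes held 50%. Leaving out each mouse in turn kept the lipogenic share between 5.85 and 6.51% and the respiratory share between 15.6 and 15.9%.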

Other observations

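Further genes outside the classes also differed between mice. They were named after their values were seen. Mouse 2 held the most Per1, a clock gene, 57.4 TPM against 11.2 to 14.8 in the others, the most Igfbp3, a binding protein of insulin-like growth factors, 71.0 against 13.0 to 16.1 TPM, and the most Cldn5, a tight junction gene of endothelium, 205 against 31.3 to 57.1 TPM. Mouse 1 held the most Tubb2a, a beta tubulin, 112 against 17.4 to 20.6 TPM. Mouse 3 held the most Cish, an inhibitor of cytokine signalling, 70.4 against 8.20 to 18.1 TPM. Markers of Schwann cells and neurons summed to 183 ± 42.2 TPM, of which S100b made up 155 TPM, and markers of mesothelium and epithelium to 5.28 ± 1.45 TPM (SD, n = 5).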
